A study of Mus musculus with 12 samples.

Results

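The collagen genes of the mouse were examined in tumors of a mouse lung cancer model and in normal mouse lung. Members were all rows of the deposited table whose Ensembl identifier carries a symbol made of Col, a type number, the letter a and a chain number. They came to 43 of the 30399 listed genes. The annotation used for symbols holds 44 such names, and the remaining one, Col10a1, was not analysed here. The study made its tumors by nonviral CRISPR/Cas9 mutagenesis, in which a guided nuclease cuts chosen genes and faulty repair disables them. The data comprised 5 samples labelled normal lung and 7 labelled tumor, each a bulk piece of tissue read by poly-A RNA sequencing. For both groups the labels give the tissue and the organism, and they name no strain, age, treatment, time after treatment, targeted gene or promoter. Titles of tumors 1 and 7 hold a word for trachea, those of tumors 3, 4, 5 and 6 a word for lung, and that of tumor 2 neither. Tumors 3 and 4 share the title number 159, and tumors 5, 6 and 7 share 201. The labels do not say what that number stands for, so p-values measure the spread between these samples.

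Collagens are secreted or membrane-bound proteins built of alpha chains that wind into a triple helix, and each gene encodes the chain of a given type. Fibrillar types assemble into the tension-bearing fibers of connective tissue and cartilage, type IV forms the sheet of basement membranes, and types VI and VIII form finer networks. In the lung, fibers of types I and III lie in airway and vessel walls and septa, while the fused basement membrane between alveolus and capillary is rich in the alpha3, alpha4 and alpha5 chains of type IV.

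Values are normalized counts, meaning reads divided by a size factor of the library, and they are not divided by gene length. The normal lungs held 11126432 to 17032234 reads assigned to genes, and the tumors 13093843 to 24217633. At this depth, 3 reads were worth at most 4.85 normalized counts in a normal library and 3.57 in a tumor library, and values at or under that floor are not ranked. These floors cover counting error only. Collagens took 0.146% to 0.379% of a normal lung's reads and 0.0775% to 0.349% of a tumor's, so the ranges overlapped. Of the 5 normal lungs 4 had a Y-linked level, as did 1 of the 7 tumors. Sex and tissue are therefore partly confounded. The labelled tissue was checked against marker lists. All 10 markers of alveolar epithelium were lower in tumor, with a summed level of 183033 to 275786 normalized counts in normal lung and 1229 to 4300.2 in tumors. All 10 neuroendocrine markers were higher, with sums of 135 to 215 and 35983 to 133411.

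Start regions of 5 members are shown first, because these genes stand for the patterns described below. The type IV genes lie head to head in pairs, with the start sites of Col4a1 and Col4a2 21 bases apart and those of Col4a6 and Col4a5 1343 bases apart. Col11a1 and Col8a1 are a cartilage and a network collagen whose levels were far apart between the groups. Each window holds 250 bases before and 50 bases from the start site on, 5′ to 3′ on the strand of the gene, from RefSeq on the build GRCm38.p6. Capitals mark 3 motifs, the CCAAT box, the TATAAA box and the GC box core GGGCGG, on either strand. On the opposite strand they read ATTGG for the first, TTTATA for the second and CCGCCC for the last, and no marked motif overlaps another in these windows.
Col4a2 (chr8:11312555-11312854, plus strand): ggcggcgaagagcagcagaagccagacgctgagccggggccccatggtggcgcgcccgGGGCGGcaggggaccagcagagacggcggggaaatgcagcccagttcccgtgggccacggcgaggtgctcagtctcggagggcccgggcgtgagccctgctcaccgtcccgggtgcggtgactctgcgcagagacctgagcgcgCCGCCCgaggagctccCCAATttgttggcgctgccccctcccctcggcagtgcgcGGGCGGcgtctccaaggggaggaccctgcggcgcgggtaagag
Col4a6 (chrX:141474027-141474326, minus strand): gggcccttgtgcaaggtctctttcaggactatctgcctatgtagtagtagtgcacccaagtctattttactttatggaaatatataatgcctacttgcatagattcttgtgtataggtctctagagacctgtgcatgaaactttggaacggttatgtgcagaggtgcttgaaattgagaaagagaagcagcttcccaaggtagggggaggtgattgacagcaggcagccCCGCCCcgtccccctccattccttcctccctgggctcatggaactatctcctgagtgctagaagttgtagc
Col4a5 (chrX:141475169-141475468, plus strand): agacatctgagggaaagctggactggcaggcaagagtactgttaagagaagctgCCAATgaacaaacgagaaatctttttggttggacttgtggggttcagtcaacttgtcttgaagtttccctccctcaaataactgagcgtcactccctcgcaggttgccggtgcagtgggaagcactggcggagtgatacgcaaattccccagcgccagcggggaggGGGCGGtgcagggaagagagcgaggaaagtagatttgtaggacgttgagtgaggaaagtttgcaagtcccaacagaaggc
Col11a1 (chr3:114030290-114030589, plus strand): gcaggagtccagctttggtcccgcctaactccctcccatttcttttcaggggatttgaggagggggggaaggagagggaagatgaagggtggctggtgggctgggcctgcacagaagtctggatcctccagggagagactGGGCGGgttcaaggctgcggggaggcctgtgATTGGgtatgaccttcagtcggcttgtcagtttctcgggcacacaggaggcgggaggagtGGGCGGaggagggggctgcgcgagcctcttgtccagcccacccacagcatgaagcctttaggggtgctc
Col8a1 (chr16:57754688-57754987, minus strand): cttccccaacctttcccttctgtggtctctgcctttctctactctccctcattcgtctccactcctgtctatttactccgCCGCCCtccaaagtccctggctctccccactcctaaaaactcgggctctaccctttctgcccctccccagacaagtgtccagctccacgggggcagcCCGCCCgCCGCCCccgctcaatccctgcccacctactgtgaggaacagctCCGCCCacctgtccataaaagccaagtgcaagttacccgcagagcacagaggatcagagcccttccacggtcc
The Col4a1 window shares 78 bases with that of Col4a2, so the sequence of Col4a2 also covers the start of its neighbour. A window was found for 34 of the 43 members, 37 windows in all. GGGCGG was present in 62.2% of the collagen windows and in 35.7% of all windows of that length. CCAAT was present in 35.1% and 37.4%, and TATAAA in 10.8% and 13.6%. None of the 5 windows shown holds TATAAA on either strand. A match is a description of these letters and not a binding site.

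The collagen genes did not move as a block. With limma on log2(normalized count + 1), 10 of 43 members (23.3%) were higher in tumor at an adjusted p under 0.05, where 31.4% of all 23674 genes tested were higher. Lower in tumor were 16 members (37.2%), where 30.1% of all genes were lower, and 17 were not called. Neither share is far from that of all genes, and the difference from all genes was not tested. The median log2 fold change of the members was -0.38, against 0.04 over all genes tested. All 7 tumors lay above all 5 normal lungs for 7 members (16.3%, against 20.1% of all genes) and below them for 8 (18.6%, against 18.4%). All 43 members had a mean of at least 1 normalized count and were tested, so none dropped out through low values. By class, 6 of 7 cartilage collagens were higher, all 6 type IV chains and the type VI chains Col6a1, Col6a2 and Col6a3 were lower, and the interstitial fibril collagens I, III and V were not called. In bulk tissue, fewer cells of a type and less RNA per cell cannot be told apart.

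**Figure D1:**
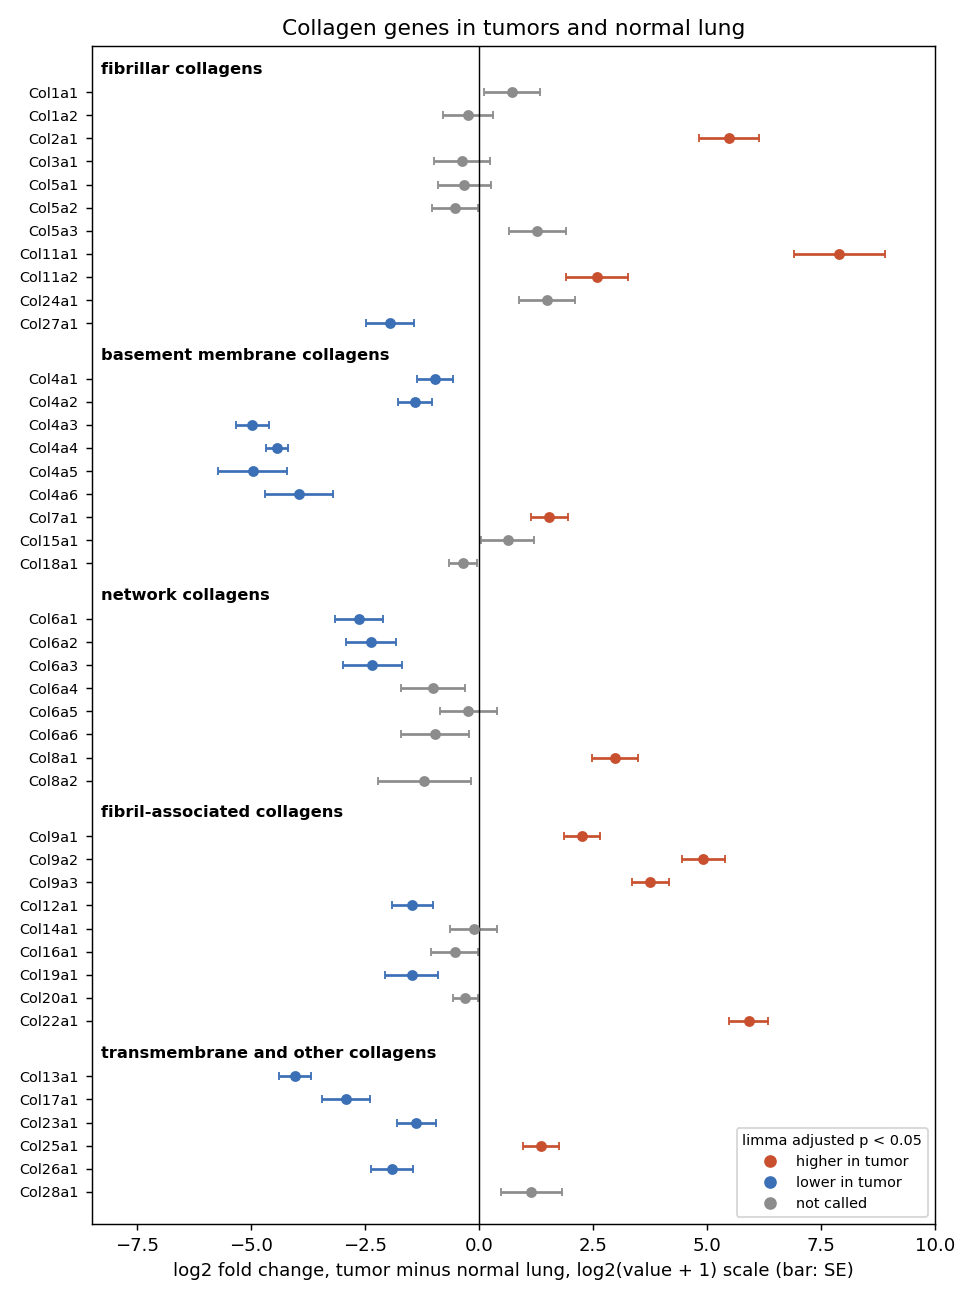
Log2 fold change (tumor minus normal lung, log2(normalized count + 1) scale) of the 43 collagen genes, grouped by class. Points are limma estimates and bars their standard errors, and colour gives the call at an adjusted p under 0.05, with 10 genes higher and 16 lower.

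The fibrils of interstitial tissue are considered first. Type I collagen joins a pair of alpha1 chains, from Col1a1, with an alpha2 chain, from Col1a2. Col1a1 (ENSMUSG00000001506, chromosome 11) read 1542, 561, 1613, 817 and 3513 normalized counts across normal lungs 1 to 5 and 825, 2719.7, 993, 5171, 873, 2598 and 8727 across tumors 1 to 7. The tumor values fell into a low set (tumors 1, 3 and 5) and a high set, and the groups overlapped. Col1a1 was not called, at a log2 fold change of 0.72 (limma SE 0.62, adjusted p = 0.33). Col1a2 read 2271, 1429, 3086, 2064 and 5122 in normal lung and 876, 2442, 922, 5187, 965, 2555 and 7904 in tumors, with the same tumors low and high. Col1a2 was not called either (-0.25, SE 0.55, adjusted p = 0.707), and its estimate was 0.11 with edgeR and 0.09 with DESeq2. Type III collagen, a trimer of a single chain that mixes into type I fibrils, followed the same samples. Col3a1 read 2453, 1356, 4046, 2171 and 5281 in normal lung and 843, 2105, 760.4, 6968, 872, 2873 and 7792 in tumors. Tumors 4 and 7 exceeded every normal lung for all of Col1a1, Col1a2 and Col3a1. Col3a1 was not called (-0.38, SE 0.61, adjusted p = 0.611), with estimates of 0.07 by edgeR and 0.05 by DESeq2.

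Type V collagen starts type I fibrils and limits their width. Col5a1 read 994, 459, 667, 464 and 1511 in normal lung and 273, 609.9, 201, 1160.3, 289, 790.4 and 2648 in tumors. Col5a2 ran from 329 to 936 in normal lung, and from 104 through a median of 382 to 1242 in the tumors. Both overlapped between the groups and neither was called, at -0.33 (SE 0.58, adjusted p = 0.642) and -0.52 (SE 0.51, adjusted p = 0.384). Col5a1 had estimates of 0.09 by edgeR and 0.06 by DESeq2. The alpha3 chain of type V, from Col5a3, read 121, 26.9, 77.5, 52.2 and 90.8 in normal lung and 78.5, 170.4, 40.6, 251, 94.6, 263 and 779 in tumors. Tumors 2, 4, 6 and 7 lay above every normal lung, while tumors 1, 3 and 5 lay among them. Col5a3 missed the threshold (1.27, SE 0.62, adjusted p = 0.0905). It passed with edgeR (1.74, adjusted p = 0.0451), with DESeq2 (1.701, adjusted p = 0.0138) and without tumor 3 (1.60, adjusted p = 0.0262), as well as with quantile normalization and with averaged tumors of one title number.

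The markers of fibroblasts, the main makers of these fibrils, were mostly lower in tumor. Of 11 fibroblast markers 0 were higher and 8 were lower in tumor, with a summed level of 61126 to 108130.1 normalized counts in normal lung and 2553 to 10741 in tumors, and no marker was at 0 in every tumor. Inmt and Mfap4 made up much of the normal sum, at 26731 to 64388 and 10884 to 17319 normalized counts. In tumors they read 2.97 to 213 and 10.9 to 1004. Dcn and Lum of that list were not called, and tumor 7 exceeded every normal lung for both. They also belong to the fibril-binding list described further on. The sum of the fibroblast list was highest among tumors in tumor 7, which was also highest for Col1a1, Col1a2 and Col3a1. Of 9 markers of smooth muscle and pericytes 1, Rgs5, was higher and 6 were lower, with overlapping sums of 7242 to 11556 and 2965 to 15907. The part of either cell type in the collagen values was not tested.

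Fibrillar collagens of cartilage included Col11a1, the member with the largest log2 fold change. Type II collagen is the chief fibril of cartilage, and type XI collagen forms the core of the same fibril. Col2a1 (ENSMUSG00000022483, chromosome 15) read 0, 0, 1.62, 0 and 2.30 normalized counts in normal lung and 12.03, 228, 90.2, 158, 61.5, 74.8 and 32.0 in tumors. Every tumor was above every normal lung, and the normal lungs held 3 reads of the gene in all. The ratio of pooled levels was 105 (95% exact counting interval 35.9 to 512). Col2a1 rose, by 5.47 log2 units (SE 0.66, adjusted p = 9.72e-06). Col11a1 (ENSMUSG00000027966, chromosome 3) had no read in normal lungs 1 to 4 and 3.45 normalized counts in normal lung 5, while the tumors read 10.8, 125, 493, 636, 1187, 1226 and 501. Every tumor was above every normal lung, lowest in tumor 1 and over 1000 in tumors 5 and 6. The 3 reads in normal lung give a pooled ratio of 796 (95% exact counting interval 272 to 3861). Col11a1 rose by 7.89 log2 units (SE 0.999, adjusted p = 1.54e-05), a value that depends on the pseudocount, since normal lung lies at the floor. Its partner chain Col11a2 read 45.1, 17.2, 51.7, 8.46 and 29.9 in normal lung and 151, 952, 47.6, 114, 74.4, 125 and 323 in tumors. Tumor 2 stood highest for Col11a2 and tumor 3 fell within the range of normal lung. Col11a2 rose (2.58, SE 0.67, adjusted p = 0.00443), and the call was lost once the Y-linked level was a covariate (2.10, adjusted p = 0.0657).

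The remaining fibrillar members are minor fibril chains. Col27a1, whose product lies in developing cartilage, went the other way, reading 589, 264, 365, 245 and 689.8 in normal lung and 62.0, 48.8, 42.6, 140.1, 78.5, 183 and 417 in tumors. Tumors 1 to 6 lay below every normal lung, and tumor 7 did not. Col27a1 fell (-1.95, SE 0.52, adjusted p = 0.00554). Col24a1, a low gene, ran from 2.82 to 19.4 in normal lung, and from 3.57 through a median of 35.0 to 46.7 in the tumors. Col24a1 was not called (1.49, SE 0.62, adjusted p = 0.0508). Without tumor 2, its lowest tumor, it was called (1.90, adjusted p = 0.00407), as it was without normal lung 3 (1.78, adjusted p = 0.0324). It was also called with edgeR, DESeq2, quantile normalization, equal totals and a minimum mean of 10 (adjusted p = 0.0422, 0.0137, 0.0281, 0.0322 and 0.0494).

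**Figure D2:**
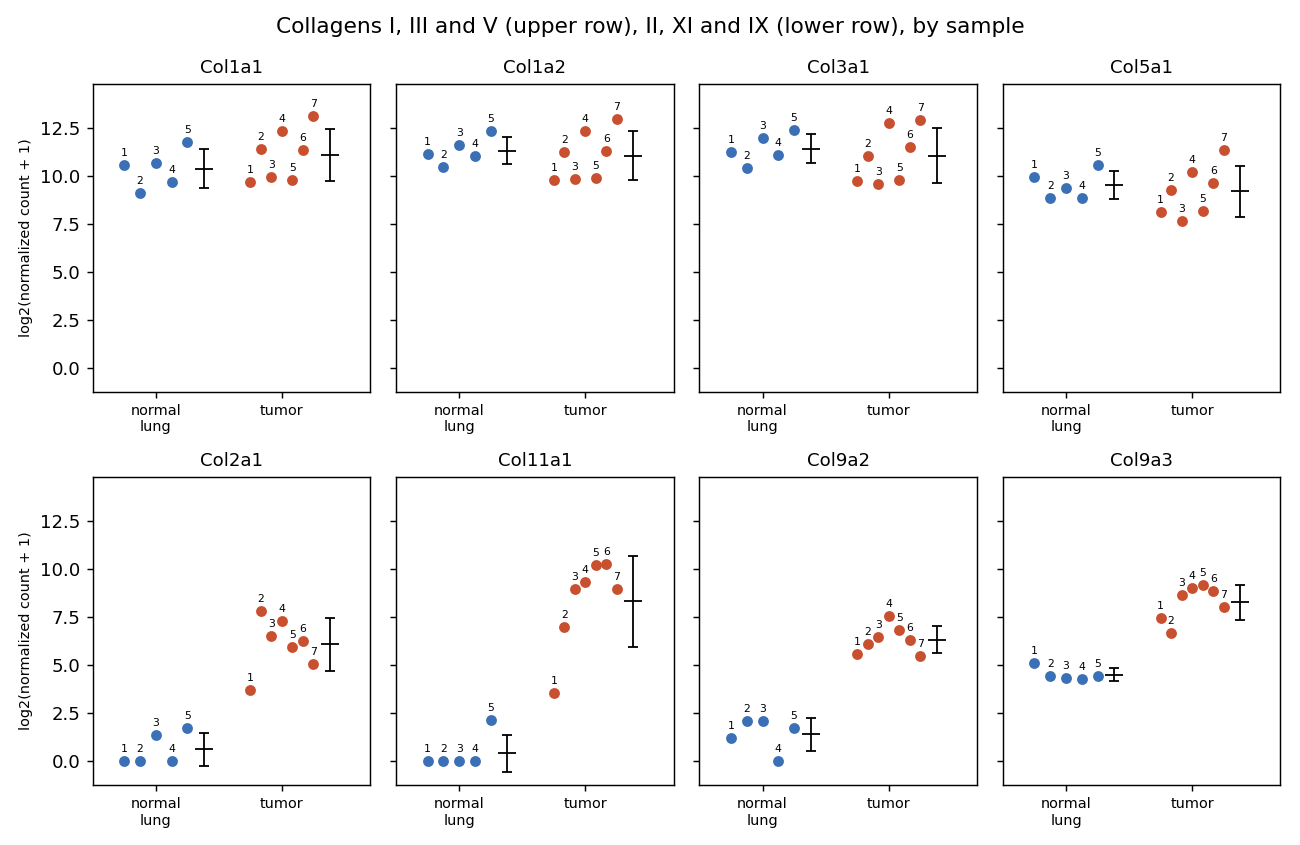
Log2(normalized count + 1) of 8 collagen genes by sample, with normal lungs 1 to 5 and tumors 1 to 7 numbered and the mean and SD of each group beside the points. Collagens I, III and V overlap between the groups in the upper row, and in the lower row every tumor lies above every normal lung for Col2a1, Col11a1, Col9a2 and Col9a3.

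Type IX collagen, which coats type II fibrils, moved with the cartilage fibrils. Its chains come from Col9a1, Col9a2 and Col9a3. Col9a2 (ENSMUSG00000028626, chromosome 4) read 1.29, 3.23, 3.23, 0 and 2.30 normalized counts in normal lung, 8 reads in all, and 47.5, 67.9, 87.2, 186, 112, 77.5 and 43.6 in tumors. The pooled ratio was 41.4 (95% exact counting interval 20.9 to 96.2), and every tumor was above every normal lung. Col9a2 rose by 4.91 log2 units (SE 0.46, adjusted p = 1.02e-06). Col9a3 read 33.5, 20.4, 19.4, 18.3 and 20.7 in normal lung and 177, 101, 404, 525, 575, 458 and 260.0 in tumors. All tumors again lay above all normal lungs, with means of 22.5 ± 6.25 (SD, n = 5) and 357 ± 180.5 (SD, n = 7). Col9a3 rose (3.75, SE 0.41, adjusted p = 4.26e-06). Exons of Col9a3 overlap those of Tcfl5 on the opposite strand, and whether counting used the strand is not given in the sources used here, so this count is uncertain. Col9a1 had no read in any normal lung and 10.8, 1.19, 6.94, 3.59, 3.24, 2.02 and 3.84 normalized counts in tumors, of which 2 were at or under the floor. Col9a1 was called higher (adjusted p = 2.45e-04), and no fold is given because its tumor mean of 4.51 is below the level of 3 reads in the shallowest normal library.

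As a class, the cartilage collagens were 7 genes, namely Col2a1, Col9a1, Col9a2, Col9a3, Col11a1, Col11a2 and Col27a1, of which 6 were higher and 1 was lower, with a median log2 fold change of 3.75. Markers of chondrocytes, the cells of cartilage, were mixed, with 4 of 9 higher and 0 lower. Acan, the large proteoglycan of cartilage, read 1.29, 0, 0, 0 and 3.45 normalized counts in normal lung and 58.9, 276, 5.95, 96.1, 5.66, 29.0 and 39.1 in tumors. Acan rose (4.53, SE 0.86, adjusted p = 4.88e-04), as did Hapln1, which links aggrecan to hyaluronan (3.83, SE 0.60, adjusted p = 1.03e-04). Cnmd and Ucma also rose, by 2.04 and 3.23 on the log2 scale. Cnmd was at or under the floor in 2 normal lungs. Ucma had 3 reads over all normal lungs and 114 over all tumors. Its pooled ratio was 16.8 (95% exact counting interval 5.61 to 82.7). For Acan, with 4 reads over all normal lungs, the pooled ratio was 60.7 (95% exact counting interval 23.6 to 224). Matn1, Matn3, Snorc, Comp and Cytl1 were not called, though Comp passed with edgeR (2.71, adjusted p = 0.0229) and DESeq2 (2.72, adjusted p = 0.00307). Matrilin-1, from Matn1, marks mature cartilage, and its gene read 0.633, 0, 0.991, 2.69, 0.809, 2.02 and 13.4 in tumors, at or under the floor in 6 of 7. Summed over the chondrocyte list, normal lungs reached 251 to 525 normalized counts and tumors 282 to 977. Most of each normal lung's sum was Cytl1, at 210, 391, 254, 511 and 243. Tumors held 253, 535, 0, 220, 4.04, 60.6 and 184 of Cytl1. The overlap of the sums therefore rests largely on Cytl1 and does not describe the other markers. The part of cartilage in the collagen values was not tested.

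The word trachea in a title allows a further comparison, since cartilage surrounds that airway. The trachea-titled tumors 1 and 7 were compared with the lung-titled tumors 3, 4, 5 and 6. Tumor 7 shares the title number 201 with tumors 5 and 6, and tumors 3 and 4 share 159. The fit treated these tumors as independent, and no alternative used the title numbers here. Of 43 members limma called 0, where it called 0.0% of 23282 genes tested in either direction. At an unadjusted p under 0.05 stood 7 of the 43 members, where 8.96% of all genes did, and the smallest adjusted p of a member was 0.394. Of the cartilage chains 5 were among those 7, and 4 of these had negative estimates, without a call. Col2a1 read 12.03 and 32.0 in them, under the lowest lung-titled tumor at 61.5, and Col9a3 read 177 and 260.0 against 404 to 575. Col9a2 and Col11a1 had negative estimates too, of -1.24 and -3.42. For Col11a1 the trachea-titled tumors did not go together. Tumor 1 read 10.8, below all lung-titled tumors, while tumor 7 at 501 lay above tumor 3 at 493. The unadjusted p of Col11a1 with edgeR was 0.203. Col11a2 had the opposite sign, with 151 and 323 against 47.6 to 125 (1.38, SE 0.53). The chondrocyte sums of tumors 1 and 7, 663 and 635, lay within those of the lung-titled tumors. edgeR called 0 members and 0.0% of all genes, with 9 members and 10.3% of all genes at an unadjusted p under 0.05. DESeq2 called 1 member, Col28a1 (2.80, adjusted p = 0.0116), and 1.81% of all genes. Without tumor 7, which leaves tumor 1 alone and assumes that it varies like the others, limma called 1 member, Col11a1 (-6.13, adjusted p = 0.00587), and 1.26% of all genes.

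The basement membrane class held the steepest falls. Type IV collagen occurs as trimers of the alpha1 and alpha2 chains, found in nearly every basement membrane, of alpha3, alpha4 and alpha5, found in lung alveoli and kidney glomeruli, and of alpha5 and alpha6. Col4a4 (ENSMUSG00000067158, chromosome 1) read 4243, 3479, 2949, 3345 and 5488 normalized counts in normal lung and 141, 208, 151, 282, 192, 102 and 212 in tumors. Its highest tumor lay more than 10-fold under its lowest normal lung. Col4a4 fell (-4.43, SE 0.24, adjusted p = 6.24e-09). Col4a3, which starts beside it, read 798, 529, 455, 516 and 933 in normal lung and 12.7, 31.0, 13.9, 24.2, 29.9, 7.41 and 26.9 in tumors. Its groups did not overlap either, and Col4a3 fell by 4.97 log2 units (SE 0.37, adjusted p = 9.73e-08). Mean levels went from 3901 ± 1004 to 184 ± 58.7 for Col4a4 and from 647 ± 208 to 20.9 ± 9.39 for Col4a3 (SD, n = 5 and 7).

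The X-linked pair behaved less evenly. Col4a5 (ENSMUSG00000031274, chromosome X) read 1324, 1005, 883, 1033 and 1713 in normal lung and 36.1, 15.5, 2.97, 48.5, 34.8, 83.6 and 257 in tumors. Tumor 3 was at the floor, whereas tumor 7 kept the most, and all tumors lay below all normal lungs. Col4a5 fell (-4.97, SE 0.76, adjusted p = 7.85e-05). Col4a6, whose start lies 1343 bases away in the windows shown above, read 602, 428, 339, 364 and 745 in normal lung and 27.9, 19.1, 3.97, 52.1, 12.9, 37.7 and 296 in tumors. Tumor 3 was again lowest and tumor 7 highest, and without overlap between the groups Col4a6 fell (-3.96, SE 0.75, adjusted p = 4.65e-04). The SD of log2 values across tumors was 1.88 for Col4a5 and 1.83 for Col4a6, against 0.73 for Col4a3 and 0.48 for Col4a4.

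The general basement membrane chains fell less. Col4a2 read 7069, 3722, 6485, 4843 and 13452 in normal lung and 1184, 2394, 1421, 3613, 2055, 3013 and 5418 in tumors. Tumor 7 lay within the range of normal lung and the others below it, and Col4a2 fell (-1.41, SE 0.38, adjusted p = 0.00571). Col4a1 read 1674, 864, 1484, 753 and 2858 in normal lung and 287, 536, 568.1, 937, 702, 968 and 1434 in tumors, with overlap. Col4a1 was called lower only just (-0.96, SE 0.39, adjusted p = 0.0477). The call was lost under 11 of 23 alternatives, among them leaving out any of normal lungs 1, 3 and 5 or tumors 1, 2, 3 and 5 (highest adjusted p = 0.139, without normal lung 5). Because first exons of Col4a1 and Col4a2 overlap on opposite strands, reads from that short stretch could not be assigned with certainty. Of 10 markers of alveolar epithelium and 10 of endothelium, cell types that lay down these membranes, all were lower in tumor. The endothelial sum went from 71739 to 83191 in normal lung to 2982 to 7677 in tumors. Their part in the type IV values was not tested.

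**Figure D3:**
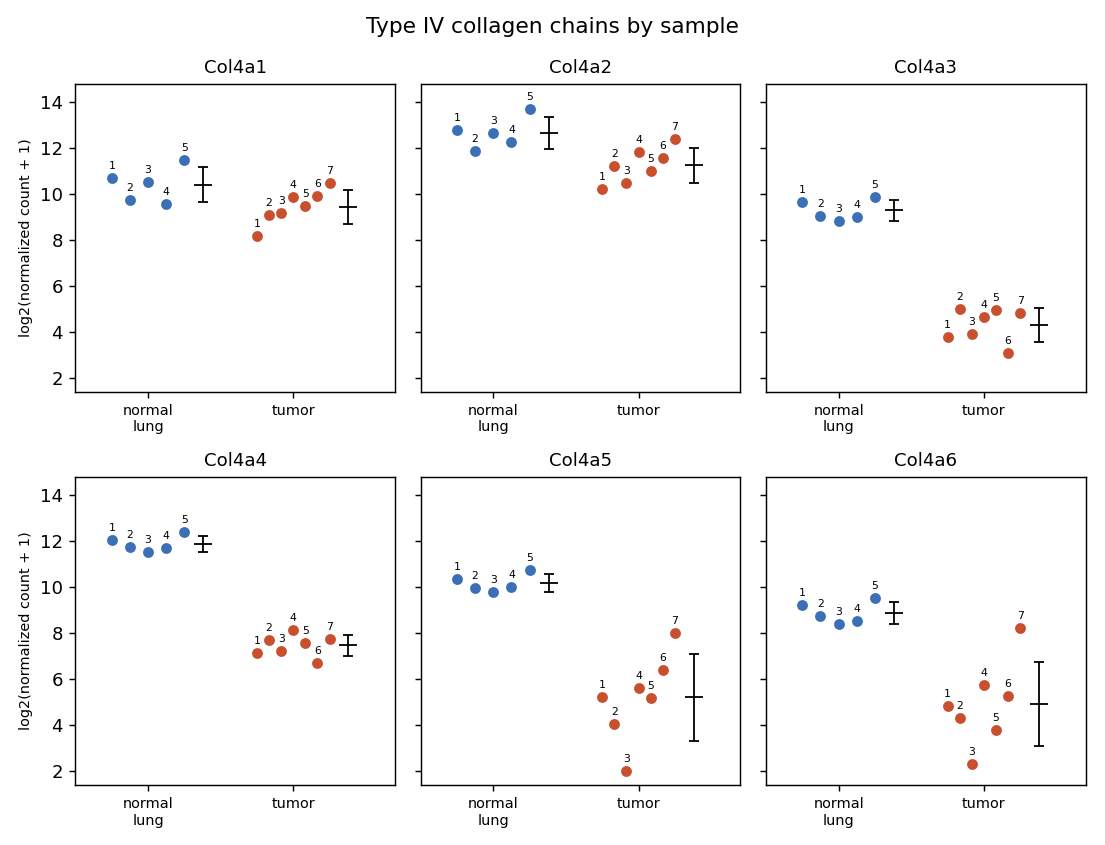
Log2(normalized count + 1) of the 6 type IV collagen genes by sample, with samples numbered and the mean and SD of each group beside the points. Col4a3 to Col4a6 do not overlap between the groups, and tumor 7 is the highest tumor for Col4a5 and Col4a6.

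Other basement membrane members did not follow type IV. Col7a1, the chain of the anchoring fibrils that tie a basement membrane to the stroma, read 94.1, 34.4, 45.2, 42.3 and 117.262 in normal lung and 84.2, 255, 115.997, 216, 232, 303 and 128 in tumors. In 5 of 7 tumors it exceeded every normal lung, and it rose (1.54, SE 0.40, adjusted p = 0.00434). That call was lost with the Y-linked covariate (1.30, adjusted p = 0.0598). Col15a1 and Col18a1 encode collagens with large sugar chains that sit at the membrane's edge. Col15a1 read 224, 118, 221, 113 and 268 in normal lung and 121, 158, 112, 345, 177, 602 and 1488 in tumors, with tumors 4, 6 and 7 above all normal lungs. Col15a1 was not called (0.63, SE 0.58, adjusted p = 0.367), and its estimate was 0.22 without tumor 7. Col18a1, the source of endostatin, ran from 193 to 489.7 in normal lung, and from 164 through 225 to 426 in tumors and was not called (-0.35, SE 0.31, adjusted p = 0.34).

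Among network collagens, the main chains of type VI were lower in tumor, and of type VIII Col8a1 was higher and Col8a2 was not called. Type VI makes beaded filaments around cells, from the chains of Col6a1, Col6a2 and Col6a3. Col6a1 (ENSMUSG00000001119, chromosome 10) read 3866, 2786, 4164, 2734 and 6882 normalized counts in normal lung and 188, 448, 309, 1053, 496, 1040.5 and 2411 in tumors. No tumor reached the lowest normal lung, and Col6a1 fell (-2.64, SE 0.52, adjusted p = 6.61e-04). Col6a2 read 3329.9, 1951, 3332, 2230.2 and 5931 in normal lung and 197, 351, 281, 1109, 479, 1023 and 2514 in tumors, with the sole overlap in tumor 7. Col6a2 fell by 2.38 log2 units (SE 0.55, adjusted p = 0.00212). Col6a3 read 2693, 992, 1647, 1085 and 3816 in normal lung and 131, 239, 91.2, 458, 432, 584 and 1967 in tumors. Once more only tumor 7 of the 7 tumors overlapped normal lung, and Col6a3 fell (-2.34, SE 0.64, adjusted p = 0.00612). The alternative chains Col6a4, Col6a5 and Col6a6 had group means of 6.71 to 17.3 normalized counts, several values at or under the floor, and no call. Without tumor 7, which held 51.9 normalized counts against 1.19 to 11.5 in the other tumors, Col6a6 was called lower (-1.49, adjusted p = 0.0319).

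Type VIII collagen forms hexagonal nets in vessel walls and in Descemet's membrane of the eye. Col8a1 (ENSMUSG00000068196, chromosome 16) read 306, 298, 423, 243 and 394 in normal lung and 8159.7, 498, 2042, 2982, 4013, 2502 and 3022 in tumors. All tumors exceeded all normal lungs, from tumor 2 close above them to tumor 1 far above, and group means were 333 ± 74.2 (SD, n = 5) and 3317 ± 2393 (SD, n = 7). Col8a1 rose (2.98, SE 0.50, adjusted p = 1.72e-04). The second chain did not go along. Col8a2 read 809.9, 790.2, 460.3, 556 and 500.1 in normal lung and 22.8, 35.7, 1629, 1530.3, 99.5, 1113 and 362 in tumors. Tumors split widely, with 3 above every normal lung, tumors 3, 4 and 6, and the other 4 below, which gave the largest SD of log2 values across tumors of any member (2.58). Col8a2 was not called (-1.20, SE 1.02, adjusted p = 0.32). Its estimate was 0.11 by edgeR and 0.14 by DESeq2, whereas limma compares means of log2 values. Mean normalized counts were 623 in normal lung and 685 in tumors.

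Fibril-associated collagens attach to the surface of fibrils. Col22a1 (ENSMUSG00000079022, chromosome 15), found where tissues join such as at tendon ends, read 3.87, 2.15, 8.08, 1.41 and 8.05 in normal lung and 142, 181, 423, 443, 334, 401 and 322 in tumors. Normal lung was at or under the floor in 3 of 5 samples, all tumors were far above it, and the tumor values were even, with a log2 SD of 0.64. Col22a1 rose (5.91, SE 0.42, adjusted p = 7.31e-08). Col12a1, which binds type I fibrils, read 989, 666, 543, 923 and 1197 in normal lung and 278, 444, 90.2, 340.4, 199.8, 294 and 981 in tumors. Tumor 7 overlapped normal lung and the other 6 did not. Col12a1 fell (-1.46, SE 0.45, adjusted p = 0.0118), a call that was lost with the Y-linked covariate (-1.29, adjusted p = 0.0943). Col14a1, a close relative of Col12a1, read 304, 201, 397, 190.4 and 489 in normal lung and 84.8, 127, 199, 568.5, 235, 503 and 734 in tumors, on both sides of normal lung. Col14a1 was not called (-0.13, SE 0.51, adjusted p = 0.842), and its sign turned with edgeR (0.16), DESeq2 (0.15), quantile normalization (0.01) and equal totals (0.08). Col16a1 ran from 62.1 to 317 in normal lung, and from 31.7 through 82.3 to 238 in tumors, without a call. Col20a1 ran from 86.1 to 219.6 and from 78.5 through 109.6 to 142, also without a call, and its count is uncertain because its exons overlap those of BX649560.1 on the same strand. Col19a1 was near the floor in tumors and was called lower (-1.48, SE 0.58, adjusted p = 0.0409), but 16 of 22 alternatives ended the call, including the omission of any of normal lungs 1 to 4 or of tumors 1, 2, 3, 4 and 6 (highest adjusted p = 0.104, without normal lung 1).

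Transmembrane collagens hold cells to their matrix. Col13a1 (ENSMUSG00000058806, chromosome 10), present at sites of cell adhesion, read 984, 688, 699, 569.9 and 1160.0 in normal lung and 26.6, 109.6, 45.6, 78.1, 25.1, 45.1 and 42.9 in tumors. Every tumor lay far below every normal lung, and Col13a1 fell (-4.04, SE 0.36, adjusted p = 5.18e-07). Col17a1, a part of the hemidesmosomes of epithelial cells, read 102, 108, 50.1, 98.7 and 159.8 in normal lung and 15.2, 2.38, 11.9, 44.9, 10.5, 10.1 and 14.1 in tumors. The highest tumor, tumor 4, came close to the lowest normal lung without reaching it, and Col17a1 fell by 2.92 log2 units (SE 0.52, adjusted p = 3.11e-04). Col23a1 read 3196, 3108, 1366, 2545 and 3878 in normal lung and 445, 2465, 852, 1471, 557, 2104 and 726 in tumors, with overlap in tumors 2, 4 and 6. Col23a1 fell (-1.38, SE 0.43, adjusted p = 0.0124), and the call was lost with the Y-linked covariate (-1.43, adjusted p = 0.0561). The fourth transmembrane member, Col25a1, is a low gene expressed in neurons, and it ran from 3.87 to 24.1 in normal lung, and from 22.5 through 29.8 to 40.4 in tumors. Col25a1 rose (1.35, SE 0.39, adjusted p = 0.00883).

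The class also holds a pair of secreted members. Col26a1 read 37.4, 36.6, 19.4, 24.0 and 27.6 in normal lung and 6.33, 19.1, 15.9, 2.69, 6.47, 4.04 and 3.84 in tumors, all below normal lung. Col26a1 fell (-1.91, SE 0.46, adjusted p = 0.00269). Col28a1, which is known from peripheral nerve, read 37.4, 22.6, 45.2, 15.5 and 35.6 in normal lung and 522, 23.8, 51.6, 69.2, 19.4, 51.2 and 113 in tumors. Tumor 1 stood far above the rest. Col28a1 was not called (1.14, SE 0.67, adjusted p = 0.156), had an estimate of 0.64 without tumor 1, and was called by DESeq2 (1.96, adjusted p = 0.0140). Of 7 markers of Schwann cells 1 was higher and 2 were lower, with sums of 3276 to 4060.3 in normal lung and 2091 to 5993 in tumors, and their part in Col28a1 was not tested.

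Levels were next compared between genes, per kilobase of exons, where the length is the union of annotated exons and includes exons of rare transcripts. Per kilobase, the highest collagens of normal lung were Col4a2 at 1075 ± 571 normalized counts per kilobase (mean ± SD), Col6a1 at 933 ± 385, Col23a1 at 491 ± 164, Col6a2 at 403 ± 189 and Col4a4 at 368 ± 94.6. Neighbours in that order lay within their spread of each other except Col6a1 and Col23a1. In tumors the order began with Col1a1 at 477 ± 444, Col8a1 at 423 ± 306, Col4a2 at 412 ± 220.3, Col3a1 at 323 ± 304 and Col1a2 at 239.7 ± 214, and no neighbours among these 5 differed beyond their spread. Between the groups, Col8a1 moved from place 21 to place 2, Col4a4 from 5 to 27 and Col4a3 from 15 to 37. The exon union of Col1a2 is 12426 bases, against 6563 for Col1a1, which lowers the level of Col1a2 per kilobase.

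Shares of the summed level per kilobase show the change in makeup. Type IV made up 33.1% to 36.2% of the collagen level in normal lung and 11.2% to 20.1% in tumors, and its alpha3 to alpha6 chains went from 12.6% ± 2.47 (mean ± SD, n = 5) to 1.05% ± 0.248 (n = 7). Neither range overlapped between the groups. Type VI went from 26.8% ± 1.94 to 8.66% ± 3.68, also without overlap. Type VIII went from 3.64% ± 1.43 to 20.8% ± 15.8, with 48.5% in tumor 1 and 2.83% in tumor 2. Types I and III together went from 13.5% ± 3.54 to 25.5% ± 11.8, and overlapped. Cartilage collagens other than Col27a1 went from 0.209% ± 0.0706 to 7.42% ± 3.81, with every tumor above every normal lung. Shares sum to 100, so a fall in one class raises the others, and no test was run on them.

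**Figure D4:**
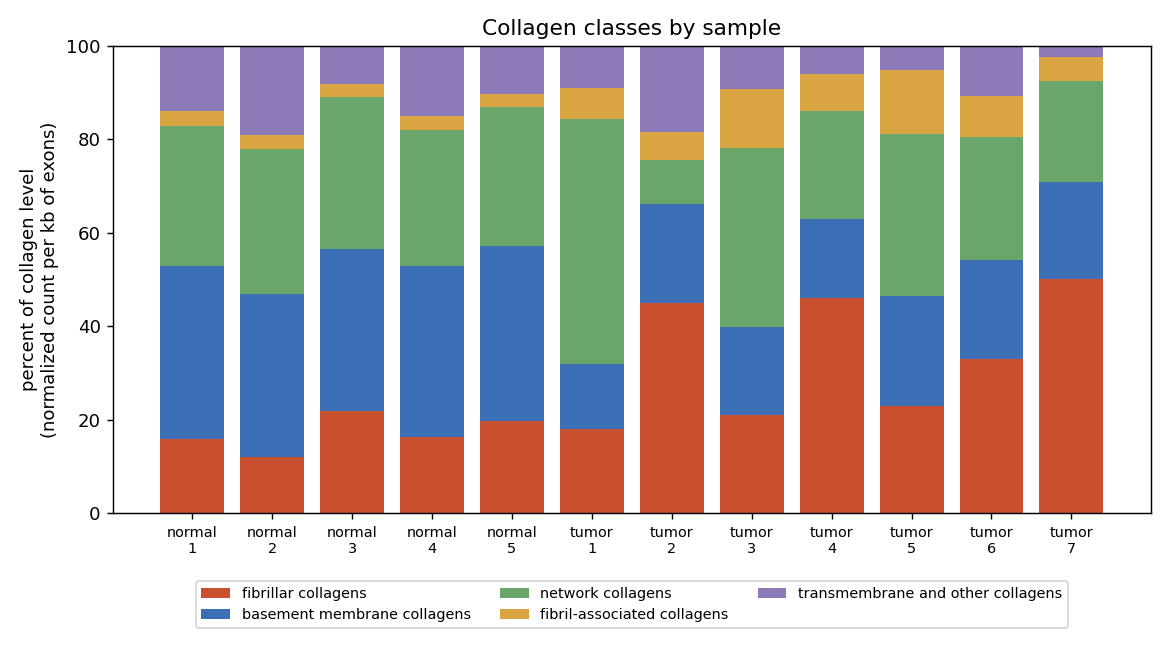
Percent of the summed collagen level (normalized count per kilobase of exons) held by each of 5 classes, 1 bar per sample. The basement membrane class holds 34.7% to 37.5% in every normal lung and 13.9% to 23.6% in every tumor, while the fibrillar and network shares vary widely among tumors.

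Ratios between chains that share a trimer or, as Col3a1 and Col1a1 do, a fibril hardly depend on library scaling. For 12 such pairs the log2 ratio was compared between the groups with a two-sided exact permutation test (792 arrangements, adjusted over the 12), and 10 differed at an adjusted p under 0.05. The smallest p that this test can give is 0.00126. The type I chains came nearest to a constant ratio in tumors. The log2 ratio of Col1a1 to Col1a2 read -0.56, -1.35, -0.94, -1.34 and -0.54 across the 5 normal lungs and -0.09, 0.16, 0.11, -0.00, -0.14, 0.02 and 0.14 across the tumors. Although Col1a1 itself spanned 825 to 8727 in tumors, the ratio stayed within a narrow band there, and in normal lung it was lower and more spread, lowest in normal lungs 2 and 4. The mean difference was 0.97 (exact permutation test, p = 0.00126, adjusted p = 0.00758). Type III relative to type I went down, with log2 ratios of Col3a1 to Col1a1 of 0.67, 1.27, 1.33, 1.41 and 0.59 in normal lung and 0.03, -0.37, -0.39, 0.43, -0.00, 0.15 and -0.16 in tumors. All tumors lay below all normal lungs, by -1.10 on average (exact permutation test, adjusted p = 0.00758).

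In type VIII, the ratio of Col8a1 to Col8a2 was below 0 in every normal lung (-1.40, -1.40, -0.12, -1.19 and -0.34) and above 0 in every tumor (8.42, 3.76, 0.33, 0.96, 5.32, 1.17 and 3.06). The difference was 4.18 (exact permutation test, adjusted p = 0.0227). These 3 ratios were called under all 15 alternatives tried. Among type IV pairs, Col4a1 to Col4a2 differed by 0.45, Col4a3 to Col4a4 by -0.55 and Col4a5 to Col4a6 by -1.01 (exact permutation tests, adjusted p = 0.0253, 0.0253 and 0.0253). The call for Col4a1 to Col4a2 was lost without normal lung 4, that for Col4a3 to Col4a4 without any of normal lung 1 and tumors 1, 3 and 4, and that for Col4a5 to Col4a6 without normal lung 4. Without the trachea-titled tumors, which leaves fewer samples, all 3 calls were lost (exact permutation tests, adjusted p = 0.0635, 0.0762 and 0.0741), and that for Col4a1 to Col4a2 also with tumors of one title number averaged (0.32, exact permutation test, adjusted p = 0.0952). Col4a5 exceeded Col4a6 by an even 1.14 to 1.502 log2 units in normal lung, while in tumors the ratio ran from -0.32 to 1.36. In type VI, Col6a1 to Col6a2 differed by -0.26 (exact permutation test, adjusted p = 0.0253) and Col6a3 to Col6a2 by 0.03, which was not called (adjusted p = 0.903). The call for Col6a1 to Col6a2 was lost with averaged tumors and without the trachea-titled tumors (exact permutation tests, adjusted p = 0.0952 and 0.0741).

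Cartilage pairs rest on normal values near the floor. Col11a1 to Col11a2 differed by 5.31 and Col9a1 to Col9a2 by -2.65 (exact permutation tests, adjusted p = 0.0253 and 0.0227). Both sizes depend on the pseudocount. With a pseudocount of 0.1 the first was 7.96 and still called (exact permutation test, adjusted p = 0.0114). Col9a1 and Col9a2 were at or under the floor in all normal lungs. With a pseudocount of 0.1 their ratio differed by -0.71 and was not called (exact permutation test, adjusted p = 0.569). The call for Col11a1 to Col11a2 was lost with tumors of one title number averaged (3.96, exact permutation test, adjusted p = 0.0714). That ratio was not uniform among tumors, being negative in tumors 1 and 2, at -3.69 and -2.92, and positive in tumors 3 to 7. Col9a3 to Col9a2 differed by -1.16 (exact permutation test, adjusted p = 0.0348), was called under 6 of 15 alternatives, and lost its call with averaged tumors, without the trachea-titled tumors, and without any of normal lungs 1, 4 and 5 or tumors 1, 2, 3 and 4. Col5a1 to Col5a2 differed by 0.20 and was not called (exact permutation test, adjusted p = 0.412).

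**Figure D5:**
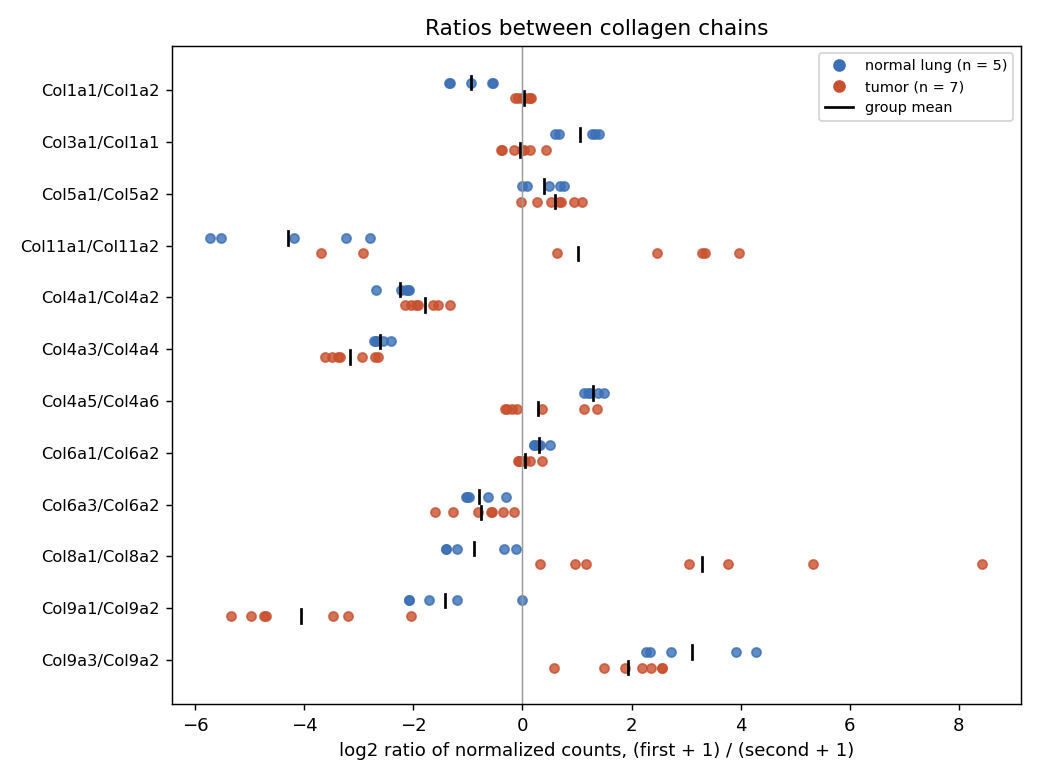
Log2 ratio of normalized counts (each plus 1) for 12 pairs of collagen chains, with normal lungs above and tumors below the line of each pair and a black bar at each group mean. The tumors sit between -0.14 and 0.16 for Col1a1/Col1a2 and all normal lungs lie below them.

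Variation among tumors was wide for most members. In 24 of 43 members the highest of 7 tumors was over 10 times the lowest, against 4 members among 5 normal lungs, low genes included. Such a range tends to widen with the number of samples, and members with a lowest value of 0 were counted. Tumor 7 was the highest tumor for 21 members and tumor 3 the lowest for 14. Tumor 7 also had by far the highest sum of cardiac muscle markers, 40942 normalized counts against 595 to 2957 in the other tumors, and of leukocyte markers, 14102 against 290.5 to 3861. The part of other tissue in the values of tumor 7 was not tested. Among normal lungs, normal lung 5 was the highest for 29 members. The share over all genes was not taken for these counts, so they cannot be read as particular to collagens.

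Collagen chains need enzymes and chaperones before they can fold, and these were taken as lists of partner genes. Of 64 partner genes in the table, 4 were higher, 37 were lower and 23 were not called, with a median log2 fold change of -1.19. Of all genes tested 31.4% were higher and 30.1% lower, and these shares also stand behind the counts of each partner list that follows. Modification and folding had 1 of 18 higher and 8 lower. Serpinh1, which encodes the collagen chaperone HSP47, read 6158, 6658, 8872, 10479.8 and 8707 normalized counts in normal lung and 298, 491, 226, 1259, 589.7, 1029 and 2949 in tumors. Every tumor was below every normal lung, and Serpinh1 fell by 3.54 log2 units (SE 0.52, adjusted p = 5.49e-05). Colgalt2, which adds galactose to hydroxylysine, fell from 753 ± 136 to 43.3 ± 31.4 (log2 fold change -4.44, adjusted p = 4.90e-06). Plod2, the lysyl hydroxylase that sets the type of crosslink, fell from 727 ± 127 to 242 ± 115 (-1.81, adjusted p = 0.00293). Mia3, needed to export large procollagens from the endoplasmic reticulum, was the gene of this list that rose, by 0.48 (SE 0.17, adjusted p = 0.0213). Subunits of prolyl 4-hydroxylase differed, with P4ha1 (-1.001) and P4hb (-0.60) lower and P4ha2 and P4ha3 not called.

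Procollagen processing and crosslinking had 1 of 15 higher and 8 lower. Pcolce2 and Pcolce encode enhancers of the protease that trims procollagen. Pcolce2 read 2609, 3599.6, 2434, 5242 and 4297 in normal lung and 52.5, 275, 14.9, 88.0, 45.3, 37.1 and 147 in tumors, and fell (-5.72, SE 0.56, adjusted p = 1.45e-06). Pcolce fell from 1656 ± 234 to 279.7 ± 252 (-3.05, adjusted p = 2.90e-04). Loxl1, a crosslinking oxidase, fell from 2984 ± 562 to 718 ± 697 (-2.71, adjusted p = 0.0032). Of its relatives, Loxl4 fell (-0.95, adjusted p = 0.0473), with 5 tumors below every normal lung. Lox, Loxl2 and Loxl3 were not called, nor was the trimming protease Bmp1, at 2154 ± 1107 and 2314 ± 749 (SD, n = 5 and 7). The higher gene was Tll2, a low one.

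Collagen degradation had 0 of 12 higher and 8 lower. Mmp8, the neutrophil collagenase, read 87.7, 176, 152, 162 and 44.8 in normal lung and 1.90, 54.8, 0, 7.18, 6.47, 1.35 and 2.56 in tumors. Mmp9, a gelatinase, read 379, 466, 449, 384 and 287 and 29.1, 708, 22.8, 35.0, 20.2, 12.1 and 40.3. Both were high in tumor 2 against the other tumors, where Mmp9 exceeded every normal lung, and both fell (-4.48, adjusted p = 3.07e-04, and -3.23, adjusted p = 0.00232). The call for Mmp9 was lost with edgeR (-1.71, adjusted p = 0.131). Timp2, an inhibitor of such proteases, fell from 15145 ± 1589 to 2226 ± 1105 (-2.87, adjusted p = 3.79e-07). Mmp14, the membrane-bound collagenase, was not called (-0.36, adjusted p = 0.502). All 9 leukocyte markers were lower in tumor, with sums of 85523 to 165339 and 290.5 to 14102. Lyz2 made up most of the normal sum, at 78689 to 157579 normalized counts. Every tumor lay below every normal lung for 4 of the 9, and not for others such as Cd3e and Itgax, in tumor 7. The part of leukocytes in Mmp8 and Mmp9 was not tested.

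Collagen receptors had 2 of 9 higher and 6 lower, with both directions among receptor kinases and among integrin chains. Ddr1, a receptor tyrosine kinase of epithelial cells that binds collagen, read 1754, 1382, 1454, 1313 and 1998 in normal lung and 3943, 2336, 3162, 3540.2, 2334, 3076 and 1797 in tumors. Apart from tumor 7 all tumors exceeded normal lung, and Ddr1 rose (0.84, SE 0.20, adjusted p = 0.00229). Ddr2, the related kinase of connective tissue cells, fell from 2544 ± 471 to 760.5 ± 366, with every tumor below every normal lung (-2.08, adjusted p = 0.00597). Itga10, an integrin chain known from chondrocytes, rose from 63.0 ± 8.49 to 123 ± 44.2 (0.89, adjusted p = 0.0142). Itga1 and Itga2, the integrin chains that bind types IV and I, fell, from 6429 ± 687 to 439.6 ± 311 (-4.14, adjusted p = 1.02e-06) and from 669 ± 98.3 to 62.2 ± 21.3 (-3.47, adjusted p = 1.14e-07). Their common partner Itgb1 fell from 13210.0 ± 978 to 5351 ± 1099.5 (-1.32, adjusted p = 2.71e-06). Gp6, the collagen receptor of platelets, read 129, 214, 107, 86.1 and 62.1 in normal lung and had 2 reads over all tumors, both in tumor 6. The ratio of pooled levels, normal lung over tumor, was 542 (95% exact counting interval 149 to 4492).

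Fibril-binding proteins had 0 of 10 higher and 7 lower. Prelp, a leucine-rich proteoglycan, read 1487, 1214, 1122, 1120.1 and 1834 in normal lung and 18.4, 11.9, 0, 17.1, 35.6, 45.1 and 218 in tumors, and fell (-6.00, SE 0.94, adjusted p = 9.65e-05). Tnxb, tenascin X, fell from 1705 ± 1516 to 263 ± 314 (-3.20, adjusted p = 0.00474), and Bgn, biglycan, from 15714 ± 2409 to 3932 ± 4089.7 (-2.62, adjusted p = 0.00181). Dcn, decorin, was not called and read 340.0, 1371, 34.7, 1263, 43.7, 443 and 3148 in tumors. Lum, lumican, was not called either and read 54.4, 147, 1.98, 314, 5.66, 227 and 1138 there. Tumors 1, 3 and 5, the low ones for Col1a1, held the 3 lowest tumor values of Dcn, Lum and Bgn alike.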

How the data were processed

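Poly-A RNA of 5 normal lungs and 7 tumors was sequenced, per the labels' protocols. The deposited table gives a signal for 30399 genes: read counts that the authors divided by a size factor of each library, with featureCounts, DESeq2 and the build GRCm39 named in the submitters' processing notes. The aligner, the annotation and the strand setting are not given in the sources used here. Dividing each column by the worth of 1 read gave whole reads, within 0.001, for 100% of its values, and hence the depth. Symbols and exon lengths came from GENCODE release M21 on GRCm38 (29982 identifiers with a symbol, 417 without), and start windows from RefSeq on the same build, and no coordinates of the table's own build were used. The 31 pairs of samples within a group were compared for duplicates, and the closest pair had a chi-square of 18.4 per degree of freedom.

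On log2(value + 1), limma 3.58.1 tested the 23674 genes whose mean reached 1 (lmFit, eBayes with trend, R 4.3.3), and genes were called at a Benjamini-Hochberg adjusted p under 0.05. The pseudocount of 1 understates the change of low genes. The design had allowed for raw counts (edgeR) and for normalized values (limma), and the table called for the latter. Chain ratios were tested by exact permutation of the samples (Python 3.11.15), and the exact counting intervals came from scipy 1.17.1. Alternatives were a pseudocount of 0.1, a minimum mean of 10, no filter, quantile normalization, equal totals, edgeR 4.0.16 with TMM and DESeq2 1.42.0 on recovered reads, averaging or blocking tumors by title number, leaving out trachea-titled tumors, the Y-linked level as a covariate, and leaving out each sample. The fits were tested on simulated counts with independent samples and equal spread in both groups. That test did not cover shared title numbers or a wider spread among tumors.

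Members, classes and lists were chosen with earlier results of these data known. In each class, values by sample are given for up to 4 called members with the largest change, up to 2 with the largest spread among tumors, the chains of called ratios, and members not called with a mean of at least 100. Of each partner list, up to 3 called genes per direction with a mean of at least 100 are named; further ones were chosen after their values were seen.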

Additional observations from a re-analysis of the deposited data

Results flagged for a closer look

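Outlying samples were sought in 80 groups of values, each of 1 member in 1 tissue, with some such groups left out. Outliers were found in 3, where chance gives about 4 (1 in 20). Col9a3 in normal lung 1 stood at 33.5 normalized counts, above the other normal lungs at 18.3 to 20.7, and still below every tumor. Col11a1 in normal lung 5 stood at 3.45 normalized counts, which is 3 reads, with 0 in the other 4 normal lungs. Col24a1 in tumor 2 stood at 3.57, below the other tumors at 19.8 to 46.7. Without tumor 2, Col24a1 passed the threshold.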

How the results depend on the processing

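Of 26 called members, 20 kept call and direction under all 23 alternatives, 6 lost the call under at least 1, and 4 of the 17 not called were called under at least 1. The count of higher members was 10, with 8 to 13 under alternatives and 10 to 11 with a sample left out, and that of lower members 16, with 13 to 16 and 14 to 17. Of the partner genes, 4 were higher, with 2 under the Y-linked covariate and 3 to 5 with a sample left out, and 37 lower, with 29 to 37 and 32 to 38. The ratios called were 10, but 6 with tumors of one title number averaged, 5 without the trachea-titled tumors, both with fewer samples, and 7 to 10 with a sample left out. The comparison by title word called 0 members, 1 with DESeq2, and 0 to 1 with a tumor left out. Some values that passed no threshold changed sign, and the cause was not tested. With edgeR and DESeq2 they became 0.114 and 0.0923 for Col1a2, 0.0675 and 0.0519 for Col3a1, 0.0911 and 0.0591 for Col5a1, 0.109 and 0.135 for Col8a2, and 0.157 and 0.148 for Col14a1. Means of log2 values are what limma compares. The ratios of mean normalized counts, tumor over normal lung, were 1.07, 1.04, 1.04, 1.10 and 1.11 for these genes in the same order. Col14a1 also gave 0.0132 with quantile normalization, 0.078 with equal totals, and -0.365 to 0.151 with a sample left out. Col6a5 gave 0.0261 with averaged tumors, 0.144 with the Y-linked covariate, and -0.616 to 0.109 with a sample left out. The ratio of Col6a3 to Col6a2 gave -0.0839 without the trachea-titled tumors, and -0.069 to 0.175 with a sample left out. Equal totals moved the median of all genes by 0.19. A consensus correlation of 0.304 was used for title numbers. Values under about 4.85 normalized counts are limited by depth. Normal lungs and tumors were not paired, because they share no title number and the replicate numbers only follow the accession order. The comparison by title word was not paired either, although the title number 201 holds both words.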

Other observations

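Tumors that share a title number differed in their collagens. Of 41 members with a mean of at least 10 in either group, 36 were higher in tumor 4 than in tumor 3, both numbered 159, with 23 over 2-fold higher and 1, Col26a1, over 2-fold lower. The fibril chain Col3a1 read 760.4 in tumor 3 and 6968 in tumor 4, and Col1a1 read 993 and 5171. Col4a5 read 2.97 and 48.5. Col20a1 read 116.99 and 109.6 in the same tumors. Among tumors 5, 6 and 7, all numbered 201, tumor 7 was highest for 28 of the 41 members and tumor 5 lowest for 30. These are single samples and were not tested, and the share over all genes was not taken.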
